A study of Spirodela polyrhiza with 16 samples.

Results

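The roots of the giant duckweed Spirodela polyrhiza were compared with its fronds in plants kept in full medium. The comparison took 8 of the 16 libraries of the series, chosen by their organ and medium: 4 of control roots and 4 of control fronds. All plants were clone 9509. They grew in 250 ml flasks holding 100 ml of N medium, which was replaced on day 10, and on day 11 the plants of a flask were split into roots and fronds, pooled and frozen. The labels call each flask a biological replicate. The other 8 libraries came from roots and fronds, 4 each, of plants whose replacement medium lacked KH2PO4, and serve here as a second set of organs. Genes were kept for testing when their FPKM (fragments per kilobase of gene, scaled to a library total) averaged 0.5 or more over all 16 libraries, as 16598 of 20389 did. Where a single level is given for an organ, it is the mean FPKM with its SD (n = 4 libraries). The difference, root minus frond, was taken on log2(FPKM + 1) values, with an SE and an adjusted p from limma, and a gene with an adjusted p under 0.05 is called. Genes given with levels alone were called too, unless stated otherwise.

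A duckweed body is a small floating frond, a leaf-like organ that photosynthesises, buds off daughter fronds and carries its stomata on the upper face. Roots hang from its lower face into the water. Both the roots and the lower face of the frond can take up ions, and no soil or transpiring canopy separates them. In land plants the root takes up nitrate, ammonium and metals, guards its vascular core with an endodermis of lignin and suberin, and lives on sugar from the shoot, while the leaf fixes carbon, is sealed by a cuticle and opens through stomata. The homolog given for a gene names its closest described protein in another species, which does not show that the duckweed gene has that function.

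Recovered reads summed to 6336541 to 8473255 per control root library and 6972192 to 8342409 per control frond library. The first principal component, with 78% of the variance over the 16 libraries, separated the organs. The median SD of a gene was 0.237 log2 units in control roots and 0.189 in control fronds. Of genes with a frond marker name, 2 of 31 tested were at least 2-fold higher in roots and 25 in fronds, and of these 31, 6 had no read in any control root. All 3 homologs of the stomatal factors FAMA and SPEECHLESS and 2 of 5 YABBY genes were among those 6. Summed frond marker levels were 12269.9 to 18774 FPKM in control roots and 37117 to 41322 FPKM in control fronds, most of it from 9 chlorophyll a-b binding genes. Of genes with a root marker name, 16 of 43 tested were at least 2-fold higher in roots and 7 in fronds. Over all tested genes the shares past that limit were 11.9% and 15.9%. Both SCARECROW homologs, which in Arabidopsis pattern the root endodermis, were not called, with 11.5 ± 0.464 FPKM in roots and 10.8 ± 0.764 FPKM in fronds for Sp13g00799 and 7.07 ± 0.462 FPKM in roots and 8.93 ± 1.55 FPKM in fronds for Sp01g01244 (limma, adjusted p = 0.619 and 0.130). Summed root marker levels were 5239 to 7385 FPKM in control roots and 1884 to 2142 FPKM in control fronds. Most of the root sum came from 2 genes with a nitrate transporter 2 name, at 3330 to 5530 FPKM in roots and 609 to 871 FPKM in fronds. CASP-like and Casparian strip genes gave 764 to 1123 and 695 to 771 FPKM, and LOB domain genes 501 to 585 and 413 to 498 FPKM. For PHO1 the sums were 140 to 176 and 27.7 to 30.7 FPKM.

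Root library 3 carried more frond transcripts than the other root libraries. Of the 69 genes at least 32-fold higher in fronds, 59 had their highest root level there or were tied for it. Ties include genes without a read in any root library, and root libraries 1, 2 and 4 had 11, 13 and 10 by the same count. The median level of the 69 genes was 0.651% of the frond mean in library 3, against 0.0280%, 0% and 0% in root libraries 1, 2 and 4. In the other direction, the 23 genes at least 32-fold higher in roots had median levels of 0.866%, 1.81%, 1.22% and 1.498% of the root mean in frond libraries 1 to 4. Without library 3, 2019 genes were at least 2-fold higher in roots and 2625 in fronds. The RNA of whole organs was measured, so more cells of a type and more RNA per cell cannot be told apart.

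The organs differed in most of the genes tested. By limma, 9929 of 16598 genes were called, which is 59.8% of those tested, with 4785 higher in roots (28.8%) and 5144 higher in fronds (31%). Many of these differences were small, and 5325 of the called genes differed by less than 2-fold. With the added limit of a log2 difference of 1, 1970 genes were higher in roots (11.9%) and 2634 in fronds (15.9%). A difference of 4-fold or more was found for 575 root genes and 773 frond genes, of 8-fold or more for 215 and 275, and of 32-fold or more for 23 and 69. The 4 root and 4 frond libraries did not overlap for 54.7% of tested genes. These counts rest on the deposited scale, whose library total was 1.09 to 1.14 times the recovered reads in control roots and 0.924 to 0.970 times in control fronds. When each library was rescaled to the same summed FPKM, the median difference over all genes moved to 0.22, against -0.02 as deposited, and the called genes divided into 6636 higher in roots and 3805 higher in fronds, with 2949 and 1990 at least 2-fold higher. Of the genes at least 2-fold higher as deposited, all 1970 root genes and 2603 of 2634 frond genes were still called in the same direction.

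Few genes were close to private to an organ. The levels of root genes in fronds, given above, were higher than those of frond genes in roots, and their part in these counts was not tested. At a mean of at least 5 FPKM, 10990 genes were present in both organs. In all, 20 genes reached 5 FPKM in roots with at most 3 reads summed over the control fronds, and 138 reached it in fronds with at most 3 reads over the control roots. Frond transcripts were also more concentrated, as the 100 most abundant genes made up 25.0% to 27.2% of the summed FPKM of a root library and 35.5% to 38.7% of that of a frond library.

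**Figure D1:**
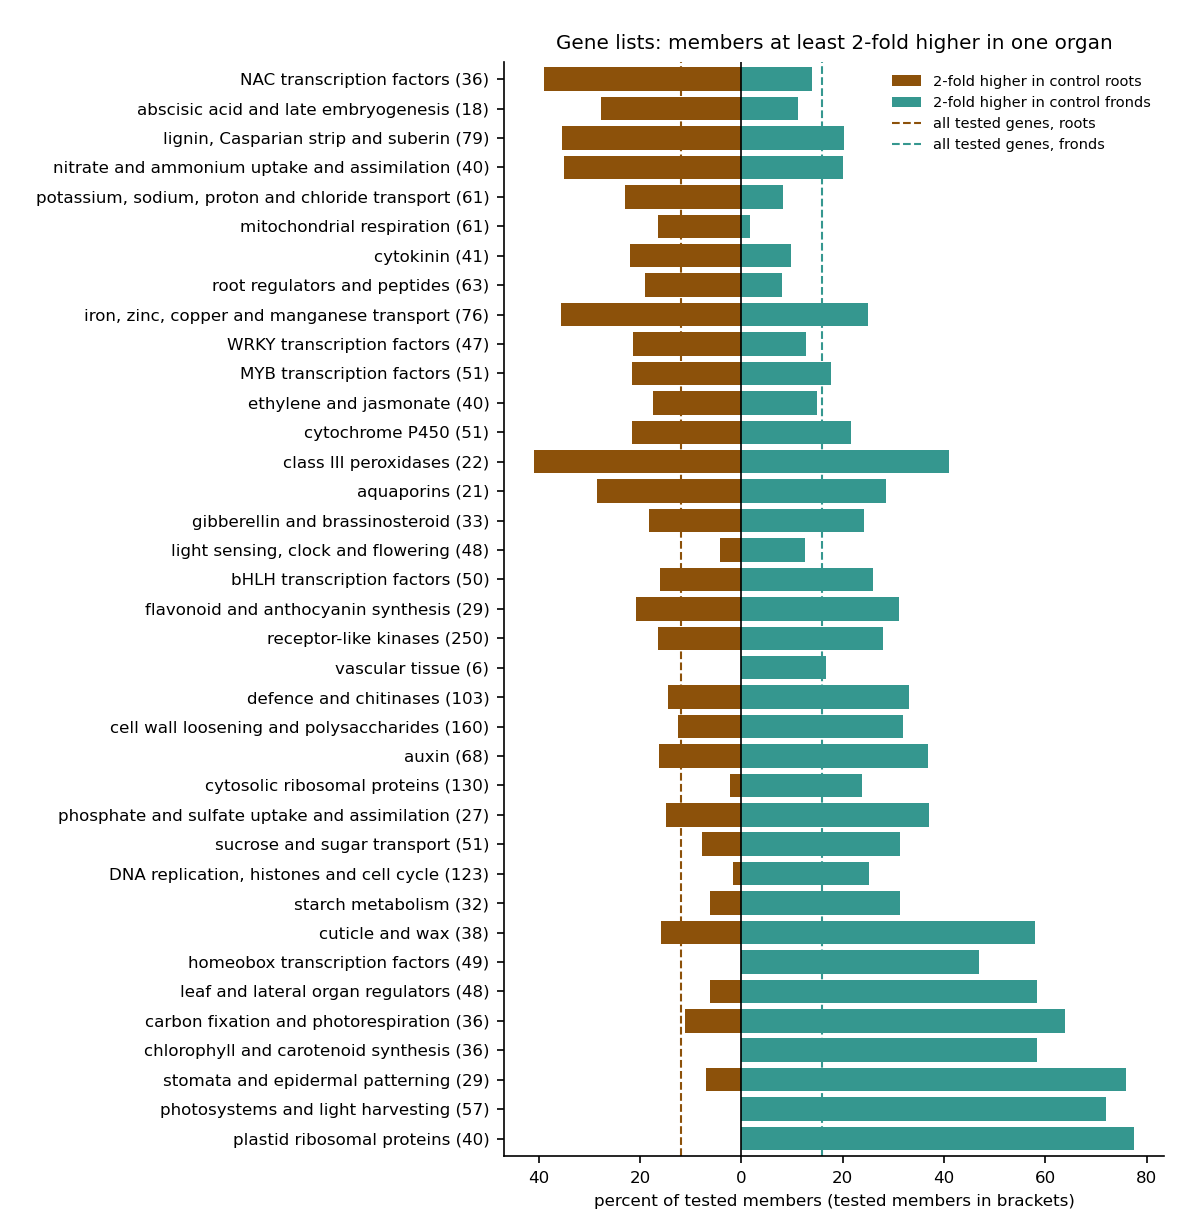
Percent of the tested members of 37 gene lists that were called and at least 2-fold higher in control roots (bars to the left) or in control fronds (bars to the right), with the tested members in brackets and the percent over all tested genes as dashed lines. NAC factors, barrier lists and ion uptake lean to roots at the top, while plastid ribosomal proteins, photosystems and stomatal genes lean to fronds at the bottom.

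Uptake and first assimilation of nitrogen were strong in roots. In the list of nitrate and ammonium genes, 14 of 40 tested genes were at least 2-fold higher in roots and 8 at least 2-fold higher in fronds, beside 11.9% and 15.9% over all genes, the background of every list count of this kind. The list held 2.84 ± 0.194% of the summed FPKM in roots and 1.04 ± 0.0954% in fronds. The root transcript pool was led, among genes at least 2-fold higher there, by the asparagine synthetase homolog Sp01g01460 (chromosome 1, 9408623 to 9410629), an enzyme that moves nitrogen from glutamine onto aspartate. Its levels were 6971, 4747, 5543 and 5235 FPKM in the control root libraries, against 578, 898, 241 and 278 FPKM in the control frond libraries, a log2 difference of 3.68 ± 0.39 (SE, limma, adjusted p = 5.96e-07). The organs did not overlap, and fronds 1 and 2 were higher than fronds 3 and 4. A homolog of cytosolic glutamine synthetase 1-1, Sp18g00255, which fixes ammonium into glutamine, had 2473, 3840.2, 3212 and 3957 FPKM in the control root libraries, against 349, 408, 423 and 414 FPKM in the control frond libraries (log2 difference 3.06, SE 0.16, limma adjusted p = 1.58e-10). All 4 roots lay far above all fronds.

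Nitrate transport followed the same direction. Sp16g00432, a homolog of the rice partner protein that high-affinity nitrate transporters need, had 3430.1, 3874, 3028 and 5217 FPKM in the control root libraries, against 650.2, 559, 795 and 608 FPKM in the control frond libraries, and the transporter homolog NRT2.3, Sp08g00312, had 313 ± 8.53 FPKM in roots and 62.1 ± 11.3 FPKM in fronds. Their log2 differences were 2.55 ± 0.19 (SE, limma, adjusted p = 8.40e-09) and 2.33 ± 0.14 (SE, limma, adjusted p = 9.42e-10). The partner gene was therefore the more abundant of the pair in both organs, and both were higher in every root than in any frond. The ammonium transporter 1 homolog Sp09g00066 had 597 ± 86.3 FPKM in roots and 134 ± 10.0 FPKM in fronds, and the ferredoxin-nitrite reductase Sp18g00445, which works in plastids, 2541 ± 253 FPKM in roots and 917 ± 135 FPKM in fronds. Both were called, at 2.13 and 1.48 on the log2 scale (limma, adjusted p = 1.77e-08 and 1.61e-07). Sp12g00334, a homolog of GLUTAMINE DUMPER 4, a family of membrane proteins that promote amino acid export in Arabidopsis, had 50.3, 54.2, 22.6 and 39.3 FPKM in roots, against 1 read in all 4 fronds.

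Other nitrogen genes were higher in fronds. Ferredoxin-dependent glutamate synthase, which in leaves recycles the ammonium of photorespiration, was lower in roots, with 722 ± 129.8 FPKM in roots and 1728 ± 145 FPKM in fronds for Sp01g00687 (log2 difference -1.27, SE 0.14, limma adjusted p = 7.38e-07). The peptide transporter NPF8.1 homolog Sp10g01091 had 5.41, 4.35, 14.8 and 5.36 FPKM in roots, of which library 3 was the highest, against 36.2, 38.7, 39.0 and 54.3 FPKM in fronds. Sp18g00300, a homolog of NPF3.1, had no read in any control root and 8.10, 7.98, 3.57 and 4.89 FPKM in fronds, at least 5.93-fold higher there against a floor of 3 reads per library.

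Metal transport was divided rather than given to an organ. Of the iron, zinc, copper and manganese genes, 27 of 76 tested genes were at least 2-fold higher in roots and 19 at least 2-fold higher in fronds, and the list held 1.61 ± 0.173% of the summed FPKM in roots and 0.408 ± 0.108% in fronds. Neighbouring homologs of rice Nramp5, which brings manganese into root cells, were among the largest root differences. Sp16g00127 (chromosome 16, 623716 to 624816) had 132, 119, 136 and 161 FPKM in the control root libraries, against 2.20, 3.78, 3.62 and 1.42 FPKM in the control frond libraries, and its neighbour Sp16g00128 122 ± 19.955 FPKM in roots and 2.58 ± 1.23 FPKM in fronds. The log2 differences were 5.25 ± 0.19 (SE, limma, adjusted p = 1.22e-12) and 5.16 ± 0.23 (SE, limma, adjusted p = 2.52e-11). Neither overlapped between organs, which was a condition for naming the largest differences. Close copies or pieces of a gene can share reads. Metal tolerance protein 7, Sp13g00300, a family that moves manganese out of the cytosol, was even across libraries at 65.0, 65.0, 66.5 and 66.4 FPKM in the control root libraries, against 3.51, 2.52, 3.44 and 3.42 FPKM in the control frond libraries. The zinc and cadmium pump HMA2 of rice, which loads the xylem, matched Sp11g00948 with 35.0 ± 6.21 FPKM in roots and 2.56 ± 0.424 FPKM in fronds. Log2 differences were 3.99 ± 0.12 (SE, limma, adjusted p = 2.23e-13) and 3.33 ± 0.15 (SE, limma, adjusted p = 2.52e-11).

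The most abundant metal gene, a homolog of the zinc transporter ZIP4, was variable in fronds. Sp19g00133 had 4027, 4687, 2989 and 3831 FPKM in the control root libraries, against 815, 892, 95.8 and 178 FPKM in the control frond libraries. The log2 difference was 3.52 ± 0.63 (SE, limma, adjusted p = 1.52e-04), the organs did not overlap, and fronds 1 and 2 were again higher than fronds 3 and 4. Models named for ferric reductases, which in Arabidopsis reduce iron at the cell surface, were divided between neighbours. Sp14g00663 and Sp14g00664, homologs of FRO4 and FRO2, had no read in any control root, against 15.3, 14.6, 28.4 and 16.9 FPKM and 9.91, 9.65, 22.2 and 13.5 FPKM in fronds, at least 14.5-fold and 14.6-fold higher there. The next model, Sp14g00665, also a FRO4 homolog, was higher in roots with 21.5 ± 7.29 FPKM in roots and 1.58 ± 0.344 FPKM in fronds. PLANT CADMIUM RESISTANCE 3, Sp07g00914, had 2 reads in all control roots and 21.7, 24.3, 27.1 and 23.5 FPKM in fronds.

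Potassium, proton and chloride transport leaned to roots, where 14 of 61 tested genes were at least 2-fold higher in roots and 5 at least 2-fold higher in fronds. The plasma membrane proton pump Sp12g00825, which energises uptake of other ions, had 697, 562, 473 and 441 FPKM in the control root libraries, against 193, 178, 181 and 148 FPKM in the control frond libraries (log2 difference 1.61, SE 0.14, limma adjusted p = 4.45e-08). The outward potassium channel homolog KOR1, Sp07g00890, had 28.7 ± 6.79 FPKM in roots and 6.93 ± 0.825 FPKM in fronds, and the 2-pore channel homolog Sp03g00601 29.0 ± 3.55 FPKM in roots and 5.4021 ± 0.683 FPKM in fronds. Phosphate and sulfate genes leaned to fronds by count: 4 of 27 tested genes were at least 2-fold higher in roots and 10 at least 2-fold higher in fronds. These counts were 4 and 8 when rescaled to the same sum, where the median log2 difference of -0.31 became -0.04. Their mean share of the summed FPKM was larger in roots, at 0.1705% against 0.1445% in fronds, and overlapped between the organs. Among them, PHO1 (Sp02g00083), which in Arabidopsis roots exports phosphate to the xylem, was higher in roots with 152 ± 17.4 FPKM in roots and 23.4 ± 0.789 FPKM in fronds (log2 difference 2.64, SE 0.11, limma adjusted p = 8.63e-12). A homolog of sulfate transporter 1.3, Sp07g01018, had 28.1, 75.1, 25.9 and 34.6 FPKM in roots and 4.76, 5.12, 7.01 and 4.75 FPKM in fronds, while a homolog of sulfate transporter 3.1, Sp03g01231, had 4.01, 2.18, 2.45 and 2.62 FPKM in roots and 63.3, 57.3, 58.8 and 53.6 FPKM in fronds. Neither overlapped between organs (limma, adjusted p = 3.36e-07 and 4.27e-13).

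Water channels differed by copy. Of the aquaporins, 6 of 21 tested genes were at least 2-fold higher in roots and 6 at least 2-fold higher in fronds, so the counts were even; rescaled to the same sum they were 8 and 6. In the vacuolar membrane class, the TIP1-2 homolog Sp01g01589 had 939.8, 452, 373 and 355 FPKM in the control root libraries, against 10.9, 14.3, 7.11 and 5.64 FPKM in the control frond libraries, with root library 1 the highest (log2 difference 5.62, SE 0.31, limma adjusted p = 3.18e-10). The TIP1-1 homolog Sp20g00057 ran the other way, with 1.09, 0, 3.27 and 0 FPKM in roots and 806, 708, 789 and 683 FPKM in fronds (log2 difference -8.75, SE 0.56, limma adjusted p = 1.80e-09). Its root mean of 1.09 FPKM was 0.365 FPKM without library 3. Its neighbour Sp20g00056 had no read in control roots and 146, 96.2, 116 and 82.6 FPKM in fronds, at least 100.5-fold higher there. At the plasma membrane, the PIP1-3 homolog Sp10g01099 was higher in roots (1254 ± 159 FPKM in roots and 234 ± 43.2 FPKM in fronds) and the PIP2-7 homolog Sp20g00239 higher in fronds (6.73 ± 1.19 FPKM in roots and 92.5 ± 11.4 FPKM in fronds), both called.

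**Figure D2:**
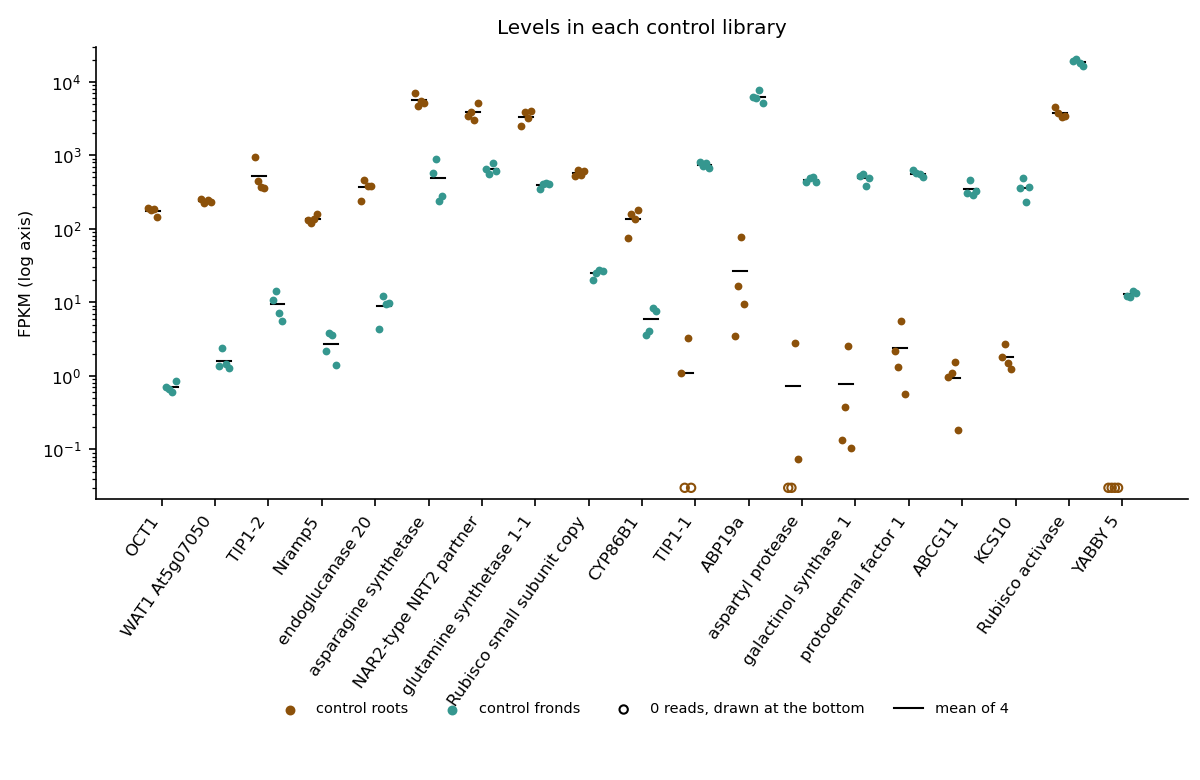
FPKM on a log axis of 19 named genes in each of the 4 control root libraries (brown, left of each pair) and 4 control frond libraries (green, right), with the mean as a line and libraries without a read as open circles at the bottom. The organs do not overlap for any of these genes, and library 3 is the third root point in each column.

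Genes of the lignin and suberin barriers leaned to roots. Among genes of lignin, Casparian strip and suberin, 28 of 79 tested genes were at least 2-fold higher in roots and 16 at least 2-fold higher in fronds, and the list held 0.485 ± 0.0323% of the summed FPKM in roots and 0.221 ± 0.0112% in fronds. Phenylalanine ammonia-lyase, which opens the phenylpropanoid route, had 82.0, 51.022, 41.1 and 51.3 FPKM in the control root libraries, against 2.55, 2.80, 3.70 and 2.16 FPKM in the control frond libraries for Sp18g00153 (log2 difference 3.88, SE 0.21, limma adjusted p = 2.17e-10). A second homolog, Sp02g00053, had 149.7 ± 12.9 FPKM in roots and 23.5 ± 4.39 FPKM in fronds. Both neighbouring 4-coumarate-CoA ligases, the activating step before lignin, were higher in roots at 261 ± 53.6 FPKM in roots and 36.1 ± 3.22 FPKM in fronds for Sp15g00069 and 260.5 ± 54.992 FPKM in roots and 37.2 ± 2.49 FPKM in fronds for Sp15g00070. Genes of suberin monomers went with them. The fatty acid hydroxylase homolog CYP86B1, Sp02g00542, had 74.7, 159, 136 and 182 FPKM in the control root libraries, against 3.57, 4.02, 8.38 and 7.75 FPKM in the control frond libraries (log2 difference 4.32, SE 0.36, limma adjusted p = 3.53e-08), and root library 1 was the lowest of the roots. The acyltransferase homologs of GPAT5, which in Arabidopsis makes root suberin, had 37.2 ± 10.0 FPKM in roots and 1.4975 ± 0.575 FPKM in fronds for Sp06g00065 and 17.6 ± 5.88 FPKM in roots and 1.34 ± 0.693 FPKM in fronds for Sp06g01264. The alcohol-forming reductase Sp04g00967 (FAR2) had 17.4 ± 5.27 FPKM in roots and 1.23 ± 0.349 FPKM in fronds.

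The Casparian strip membrane protein 1 homolog Sp04g00111, a scaffold of the endodermal lignin ring, had 35.1, 67.8, 53.0 and 51.2 FPKM in the control root libraries, against 1.73, 3.56, 3.55 and 3.13 FPKM in the control frond libraries (log2 difference 3.72, SE 0.27, limma adjusted p = 8.34e-09). All roots lay above all fronds. Its wider family of CASP-like proteins, whose functions are largely unknown, was divided: 6 of 19 tested were at least 2-fold higher in roots and 4 in fronds. Sp04g01199 (CASP-like 2A1) had 0, 0, 0.326 and 0 FPKM in roots and 104, 109, 107 and 96.1 FPKM in fronds. Class III peroxidases, extracellular enzymes that can couple lignin units, were likewise divided, with 9 of 22 tested at least 2-fold higher in each organ. Peroxidase 51, Sp07g00656, was the most abundant of those named, with 966, 1814, 1383 and 1624 FPKM in the control root libraries, against 95.01, 142, 146 and 175 FPKM in the control frond libraries (log2 difference 3.36, SE 0.31, limma adjusted p = 1.13e-07). Peroxidase 47 (Sp04g00557) had 187 ± 57.7 FPKM in roots and 9.44 ± 1.34 FPKM in fronds, and on the frond side peroxidase 71 (Sp16g00159) had 2.43 ± 2.20 FPKM in roots and 116 ± 16.8 FPKM in fronds, a root mean that was 1.54 FPKM without library 3.

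Of genes of mitochondrial respiration, 42 of 61 tested were called higher in roots and 5 higher in fronds, beside 28.8% and 31% over all tested genes. Of them 10 were at least 2-fold higher in roots and 1 in fronds. The root count was 24 with FPKM rescaled to the same sum and 6 without root library 4. The list had a median log2 difference of 0.48 beside -0.02 over all genes, and of 0.76 beside 0.22 when rescaled to the same sum. The Rieske subunit of the cytochrome b-c1 complex, Sp10g00231, had 349 ± 19.1 FPKM in roots and 204 ± 4.43 FPKM in fronds (log2 difference 0.77, SE 0.08, limma adjusted p = 5.63e-07), and a flavoprotein of NADH dehydrogenase, Sp13g00968, 144 ± 8.16 FPKM in roots and 77.4 ± 2.67 FPKM in fronds. The alternative oxidase AOX1A, which passes electrons to oxygen without pumping protons, was divided between copies: Sp11g00088 had 54.6 ± 16.5 FPKM in roots and 3.98 ± 2.07 FPKM in fronds, and Sp09g00695 45.0 ± 11.4 FPKM in roots and 119 ± 12.2 FPKM in fronds. Both were called (limma, adjusted p = 1.50e-07 and 2.43e-06). The 6-phosphogluconate dehydrogenase homolog Sp07g00324, of the oxidative pentose phosphate route, had 2101, 2483, 1708 and 2713 FPKM in the control root libraries, against 317, 351, 403 and 238 FPKM in the control frond libraries (log2 difference 2.78, SE 0.17, limma adjusted p = 7.36e-10). A cytosolic invertase homolog CINV2, Sp10g00342, which splits sucrose, had 117 ± 14.7 FPKM in roots and 17.8 ± 2.60 FPKM in fronds. The non-symbiotic hemoglobin 1 homolog Sp03g00149, a class known in other plants for scavenging nitric oxide, had 2989, 3797, 4741 and 4441 FPKM in the control root libraries, against 708, 827, 546 and 649 FPKM in the control frond libraries, with no overlap.

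Genes named for plastid carbon enzymes were not all higher in fronds. Sp15g00063 (chromosome 15, 830509 to 833461), the gene in the marker set with a Rubisco small subunit name, had 521, 633, 533 and 604 FPKM in the control root libraries, against 19.9, 25.4, 27.4 and 26.8 FPKM in the control frond libraries, a log2 difference of 4.48 ± 0.12 (SE, limma, adjusted p = 1.16e-13). The lowest root library lay far above the highest frond library, so this gene ran against the frond marker list it belongs to. It was the only gene found by that name, and its frond level was far below that of Rubisco activase, given below. Small subunit genes without the name would be missed. This gene therefore does not show in which organ small subunit transcripts as a whole were higher. A transketolase homolog, Sp14g00593, shared by the Calvin cycle and the pentose phosphate route, also favoured roots, with 948 ± 229 FPKM in roots and 195 ± 48.5 FPKM in fronds (log2 difference 2.27, SE 0.19, limma adjusted p = 3.49e-08).

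The photosynthetic apparatus as a whole favoured fronds. Of genes of the photosystems and light harvesting, 0 of 57 tested genes were at least 2-fold higher in roots and 41 at least 2-fold higher in fronds, and 52 were called higher in fronds, beside 31% over all tested genes. Rescaled to the same sum, 22 were at least 2-fold higher in fronds. The list held 7.80 ± 0.935% of the summed FPKM in roots and 14.7 ± 0.504% in fronds, so it was also a large part of the root pool. Its median log2 difference was -1.19. The photosystem II 10 kDa protein (PsbR) homolog Sp17g00044, the most abundant frond transcript by the rule, had 8134, 9170.1, 11408 and 8878 FPKM in the control root libraries, against 18100, 20503, 21542 and 20097 FPKM in the control frond libraries (log2 difference -1.10, SE 0.13, limma adjusted p = 2.17e-06). The organs did not overlap, and its root level was itself above that of the asparagine synthetase gene. Oxygen-evolving protein 1, Sp01g00437, had 3974 ± 545 FPKM in roots and 9462 ± 351 FPKM in fronds, the antenna protein CP29.1, Sp10g01118, 2951 ± 311 FPKM in roots and 7978 ± 209.6 FPKM in fronds, and plastocyanin, Sp09g00335, 3497 ± 768 FPKM in roots and 8758 ± 3139 FPKM in fronds.

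In carbon fixation and photorespiration, 4 of 36 tested genes were at least 2-fold higher in roots and 23 at least 2-fold higher in fronds, with a median log2 difference of -1.42 and 1.96 ± 0.131% of the summed FPKM in roots and 6.19 ± 0.421% in fronds. Rubisco activase, which frees Rubisco of tight inhibitors, had 4602, 3777, 3364 and 3380 FPKM in the control root libraries, against 19323, 20328, 17998 and 16368 FPKM in the control frond libraries for Sp10g01056 (log2 difference -2.30, SE 0.13, limma adjusted p = 2.74e-10). Both neighbouring phosphoribulokinase models, which remake the Rubisco substrate, were higher in fronds, with 538 ± 35.6 FPKM in roots and 2012 ± 143 FPKM in fronds for Sp14g00732 and 992 ± 40.9 FPKM in roots and 3479 ± 237 FPKM in fronds for Sp14g00731. The plastid glyceraldehyde-3-phosphate dehydrogenases GAPA1 and GAPA2 had 1344 ± 80.3 FPKM in roots and 6487 ± 419 FPKM in fronds for Sp04g01180 and 1963 ± 109 FPKM in roots and 9361 ± 568 FPKM in fronds for Sp04g01181. Chlorophyll synthesis ran in the same direction: of its list with carotenoids, 0 of 36 tested genes were at least 2-fold higher in roots and 21 at least 2-fold higher in fronds. The neighbouring ChlH models of magnesium chelatase, the entry to chlorophyll, had 295 ± 33.9 FPKM in roots and 1098 ± 99.01 FPKM in fronds for Sp10g00613 and 199 ± 28.8 FPKM in roots and 788 ± 96.0 FPKM in fronds for Sp10g00614. Glutamyl-tRNA reductase, Sp03g00008, the first committed step of the pathway, was higher in roots instead, with 53.8 ± 10.6 FPKM in roots and 30.7 ± 11.2 FPKM in fronds and overlapping libraries (limma, adjusted p = 0.00534).

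Genes of the plastid ribosome, which makes part of the photosynthetic proteins, were higher in fronds too. Of 40 plastid ribosomal proteins tested, 0 were at least 2-fold higher in roots and 31 in fronds (18 when rescaled to the same sum), with a median log2 difference of -1.23. The chloroplast L3-1 homolog Sp06g00659 had 132 ± 7.53 FPKM in roots and 519 ± 18.9 FPKM in fronds, and S1, Sp06g00712, 140.2 ± 8.49 FPKM in roots and 432 ± 11.2 FPKM in fronds. Cytosolic ribosomal proteins had a median of -0.79, or -0.51 when rescaled to the same sum, and of 130 tested, 3 were at least 2-fold higher in roots and 31 in fronds. The frond count was 6 when rescaled to the same sum and 14 to 62 when 1 library was left out, lowest without root library 3 and highest without root library 4. Their share of the summed FPKM overlapped between the organs, at 1.80% to 3.38% in roots and 2.54% to 4.02% in fronds.

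**Figure D3:**
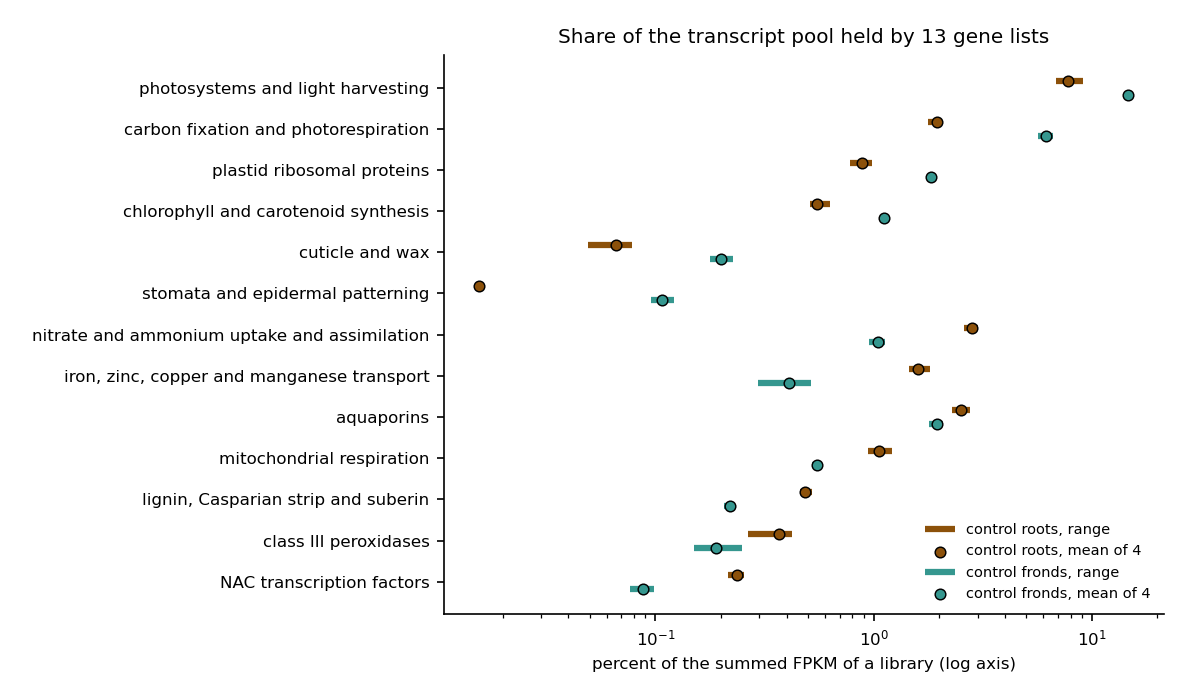
Percent of the summed FPKM of a library, on a log axis, held by 13 gene lists in control roots (brown, upper of each pair) and control fronds (green, lower), as the range and the mean of 4 libraries. Photosystem, carbon fixation, plastid ribosome, pigment, cuticle and stomatal lists hold more of the frond pool, and nitrogen, metal, respiration, barrier and NAC lists more of the root pool, with no overlap for the lists shown.

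Epidermal genes had the lowest median of the 37 lists on the deposited scale. Of the stomatal and epidermal patterning genes, 2 of 29 tested genes were at least 2-fold higher in roots and 22 at least 2-fold higher in fronds, with a median log2 difference of -2.46, or -2.20 with 4 genes that had no root read set at their bound. The median was -4.63 with a pseudocount of 0.1 and -4.26 with voom on recovered reads. SPEECHLESS, which starts the stomatal lineage, and FAMA, which ends it, matched genes without a read in any control root: Sp05g00297 had 1.91, 2.64, 2.88 and 2.96 FPKM in fronds and Sp04g01037 5.49, 3.54, 4.51 and 4.64 FPKM. Their lowest possible fold differences, against 3 reads per library, were 3.11 and 2.70. EPIDERMAL PATTERNING FACTOR-like 9, a peptide that promotes stomata in Arabidopsis, had 0, 0, 0 and 0.272 FPKM in roots and 31.1, 26.5, 20.2 and 23.9 FPKM in fronds for Sp10g00160. The homeodomain factors ROC2, rice members of the class that specifies outer cell layers, had 0.122, 0, 0 and 0 FPKM in roots and 33.9, 33.3, 29.4 and 28.4 FPKM in fronds for Sp13g00972. Sp17g00350 had 0.0720 ± 0.144 FPKM in roots and 48.7 ± 5.97 FPKM in fronds, and its neighbour Sp17g00351 0.141 ± 0.283 FPKM in roots and 51.4 ± 7.38 FPKM in fronds. Protodermal factor 1, an extracellular protein of the shoot epidermis, had 2.19, 1.34, 5.55 and 0.566 FPKM in the control root libraries, against 631, 574, 555 and 503 FPKM in the control frond libraries for Sp08g00486 (log2 difference -7.58, SE 0.39, limma adjusted p = 1.11e-10). Its root mean was 1.37 FPKM without library 3. The 2 genes of this list that were at least 2-fold higher in roots were the anion channels SLAH1 and SLAH3, a class that roots use as well. Sp13g00223 had 27.7 ± 8.26 FPKM in roots and 3.32 ± 0.605 FPKM in fronds and Sp13g00507 36.9 ± 2.94 FPKM in roots and 10.3 ± 0.858 FPKM in fronds.

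Surface lipids were divided by kind. Of cuticle and wax genes, 6 of 38 tested genes were at least 2-fold higher in roots and 22 at least 2-fold higher in fronds. The elongase homologs KCS10 and KCS12, which extend fatty acids for cuticle and wax, had 1.83, 2.72, 1.49 and 1.24 FPKM in the control root libraries, against 363, 491, 230.0 and 366 FPKM in the control frond libraries for Sp05g00075 and 0.938 ± 0.498 FPKM in roots and 144 ± 23.6 FPKM in fronds for Sp02g00096. The ABCG11 homolog Sp02g00487, an exporter of cuticular lipids in Arabidopsis, had 0.953, 1.09, 1.55 and 0.185 FPKM in the control root libraries, against 310.2, 465, 289 and 327 FPKM in the control frond libraries (log2 difference -7.51, SE 0.29, limma adjusted p = 3.00e-12). A wax ester synthase, Sp12g00152, had 3 reads in all control roots and 27.9, 25.4, 29.2 and 24.0 FPKM in fronds. The 6 higher in roots were homologs of CYP86B1, CYP86A22, FAR2 and GPAT5 (3 genes), of which CYP86B1, FAR2 and GPAT5 also belong to the suberin list, so the list name did not describe them. MYB96 and MYB306 homologs, of a class that switches on wax genes in Arabidopsis, were frond transcripts, with 0, 0, 0.357 and 0.127 FPKM in roots and 51.7, 55.7, 39.1 and 51.03 FPKM in fronds for Sp18g00706, and 0.471 ± 0.387 FPKM in roots and 98.8 ± 19.8 FPKM in fronds for Sp07g01069.

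Regulators of leaf form leaned to fronds: 3 of 48 tested genes were at least 2-fold higher in roots and 28 at least 2-fold higher in fronds, or 6 and 28 when rescaled to the same sum. The YABBY 5 homolog Sp08g01316, of a family that marks the lower side of leaves in Arabidopsis, had no read in any control root and 12.4, 11.7, 14.1 and 13.6 FPKM in fronds, at least 26.7-fold higher there. A YABBY 2 homolog, Sp09g00758, had 5.09 ± 1.02 FPKM in roots and 80.5 ± 3.4976 FPKM in fronds (log2 difference -3.76, SE 0.18, limma adjusted p = 4.40e-11). TCP3, Sp05g00323, of a class that limits growth at leaf margins, had 1.24 ± 0.407 FPKM in roots and 55.4 ± 7.98 FPKM in fronds, and a knotted-1-like 2 homolog, Sp09g01091, no read in control roots and 9.38, 5.53, 8.87 and 6.91 FPKM in fronds. Homeobox factors in general followed: 0 of 49 tested were at least 2-fold higher in roots and 23 in fronds. On the root side, CUP-SHAPED COTYLEDON 3, a boundary factor, had 20.9, 34.8, 36.8 and 34.6 FPKM in the control root libraries, against 1.27, 1.21, 1.16 and 0.681 FPKM in the control frond libraries for Sp02g00073 (log2 difference 3.96, SE 0.19, limma adjusted p = 4.26e-11). A KAN4 homolog, Sp03g00112, had 20.8 ± 5.77 FPKM in roots and 3.82 ± 0.869 FPKM in fronds.

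Regulators known from roots were divided too. Of them, 12 of 63 tested genes were at least 2-fold higher in roots and 5 at least 2-fold higher in fronds. The frond count was 8 without root library 1 and 9 without frond library 3, and voom on recovered reads and a pseudocount of 0.1 each gave 14 and 10. Of 3 SHORT-ROOT homologs, whose Arabidopsis namesake acts with SCARECROW in the root ground tissue, 1 was at least 2-fold higher in each organ. SHORT-ROOT 2 had 8.83, 8.91, 8.15 and 9.72 FPKM in the control root libraries, against 3.13, 2.30, 3.85 and 3.22 FPKM in the control frond libraries for Sp03g00384 (log2 difference 1.27, SE 0.17, limma adjusted p = 6.26e-06). Sp07g00514 ran the other way, with 0, 0.392, 0.233 and 0.332 FPKM in the control root libraries, against 4.29, 3.33, 5.74 and 4.22 FPKM in the control frond libraries (log2 difference -2.12, SE 0.21, limma adjusted p = 3.16e-07). MAGPIE, a zinc finger partner of these factors, had 9.12 ± 2.21 FPKM in roots and 1.88 ± 0.959 FPKM in fronds for Sp05g00334. LOB domain 15, Sp01g01352, had 28.6, 51.9, 46.0 and 42.3 FPKM in the control root libraries, against 4.01, 2.15, 3.85 and 4.18 FPKM in the control frond libraries (log2 difference 3.24, SE 0.23, limma adjusted p = 5.83e-09). These 4 genes were called without overlap between the organs. Of 5 homologs of the PLETHORA class, 2 were at least 2-fold higher in roots and 1 in fronds. The AIL5 homolog Sp12g00812 had 35.0 ± 12.7 FPKM in roots and 13.8 ± 3.42 FPKM in fronds, the AIL7 homolog Sp15g00066 3.25 ± 1.27 FPKM in roots and 0.557 ± 0.336 FPKM in fronds, and the AIL1 homolog Sp18g00132 0.265 ± 0.214 FPKM in roots and 11.7 ± 1.33 FPKM in fronds.

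NAC transcription factors had a median log2 difference of 0.60, or 0.32 with no filter on low values. Of these, 14 of 36 tested genes were at least 2-fold higher in roots and 5 at least 2-fold higher in fronds, the frond count being 8 with a pseudocount of 0.1 or with voom. The list held 0.237 ± 0.0208% of the summed FPKM in roots and 0.0879 ± 0.00886% in fronds. NAC 78, Sp16g00140, had 111 ± 33.9 FPKM in roots and 9.93 ± 1.77 FPKM in fronds, NAC 47, Sp01g01214, 42.3 ± 9.02 FPKM in roots and 2.87 ± 0.918 FPKM in fronds, and NAC 87, Sp10g00871, 63.2 ± 4.30 FPKM in roots and 16.4 ± 1.06 FPKM in fronds. Of the 5 NAC genes at least 2-fold higher in fronds, 3 were the homologs of NAC 35, with 1, 1 and 2 reads over the control roots and 23.4, 22.4 and 12.5 FPKM in fronds for Sp16g00183, Sp07g00535 and Sp04g00538. The other two were homologs of NAC 71 and NAC 104. Single factors of other families were also higher in roots, although their lists were divided. Of MYB factors, 11 of 51 tested genes were at least 2-fold higher in roots and 9 in fronds, or 14 and 7 when rescaled to the same sum. Of bHLH factors, 8 of 50 tested genes were at least 2-fold higher in roots and 13 in fronds, or 9 and 11 when rescaled. WRKY35, Sp13g00776, had 58.4, 63.2, 62.9 and 69.3 FPKM in the control root libraries, against 2.56, 2.87, 3.26 and 3.61 FPKM in the control frond libraries (log2 difference 3.99, SE 0.13, limma adjusted p = 4.27e-13). MYB59, Sp06g00112, had 45.6 ± 5.33 FPKM in roots and 1.17 ± 0.579 FPKM in fronds and bHLH111, Sp14g00304, 74.8 ± 16.1 FPKM in roots and 2.91 ± 1.19 FPKM in fronds. The AT-hook protein AHL22, Sp13g00044, had 156, 112, 132 and 133 FPKM in the control root libraries, against 1.21, 1.01, 0.632 and 1.30 FPKM in the control frond libraries (log2 difference 6.04, SE 0.21, limma adjusted p = 1.22e-12). The bZIP factor TGAL4 of rice matched Sp16g00028 with 186 ± 30.8 FPKM in roots and 3.24 ± 0.881 FPKM in fronds.

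Hormone genes were higher in either organ. Of auxin genes, 11 of 68 tested genes were at least 2-fold higher in roots and 25 at least 2-fold higher in fronds. The auxin-conjugating enzyme GH3.6, Sp17g00422, had 0.150, 0, 0.488 and 0 FPKM in roots and 37.5, 39.8, 27.7 and 30.015 FPKM in fronds (log2 difference -4.91, SE 0.16, limma adjusted p = 6.39e-13). Auxin response factors 7 and 16 had 1.32 ± 0.358 FPKM in roots and 36.4 ± 2.44 FPKM in fronds for Sp18g00072 and 0.656 ± 0.188 FPKM in roots and 22.3 ± 3.64 FPKM in fronds for Sp18g00070. The small auxin-induced protein SAUR32, Sp02g01041, ran the other way, at 239 ± 53.6 FPKM in roots and 25.3 ± 5.61 FPKM in fronds. Of the cytokinin list, 9 of 41 tested genes were at least 2-fold higher in roots and 4 at least 2-fold higher in fronds. The isopentenyltransferase IPT8 homolog Sp08g00090, the first step, had 17.5, 30.2, 30.8 and 29.3 FPKM in the control root libraries, against 3.33, 4.61, 3.36 and 1.73 FPKM in the control frond libraries (log2 difference 2.73, SE 0.23, limma adjusted p = 3.98e-08). Cytokinin hydroxylase, Sp18g00296, which makes the trans-zeatin form, had 49.0, 39.8, 35.5 and 40.7 FPKM in the control root libraries, against 1.71, 1.36, 2.23 and 1.45 FPKM in the control frond libraries (log2 difference 3.97, SE 0.15, limma adjusted p = 2.43e-12). No root overlapped a frond for either. The degrading enzyme cytokinin dehydrogenase 11, Sp18g00135, was higher in fronds at 11.6 ± 6.01 FPKM in roots and 37.9 ± 5.37 FPKM in fronds.

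Of ethylene and jasmonate genes, 7 of 40 tested genes were at least 2-fold higher in roots and 6 at least 2-fold higher in fronds, near the 11.9% and 15.9% over all genes. These counts were 8 and 5 when rescaled to the same sum, where its median of -0.15 became 0.12. The ACC oxidase homolog Sp01g01726, which releases ethylene, had 5.9966, 10.3, 7.15 and 4.46 FPKM in the control root libraries, against 571, 637, 612 and 523 FPKM in the control frond libraries (log2 difference -6.25, SE 0.24, limma adjusted p = 3.99e-12), and an ACC synthase, Sp09g01093, no read in control roots and 3.80, 6.12, 6.11 and 7.003 FPKM in fronds. The 12-oxophytodienoate reductase 1 homolog Sp04g00564 had 1195 ± 162 FPKM in roots and 195 ± 16.991 FPKM in fronds. For abscisic acid, NCED, the committed step of synthesis, had 66.0, 16.2, 57.0 and 13.8 FPKM in roots and 1.11, 2.03, 0.612 and 2.28 FPKM in fronds for Sp16g00469 (log2 difference 3.71, SE 0.57, limma adjusted p = 3.71e-05), with no overlap although the roots varied widely among themselves. The 8'-hydroxylase 3, Sp18g00443, which inactivates the hormone, had 1 read over the control roots and 9.74 ± 1.67 FPKM in fronds.

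Growth and sugar genes gave mixed pictures. Of genes of DNA replication, histones and the cell cycle, 2 of 123 tested genes were at least 2-fold higher in roots and 31 at least 2-fold higher in fronds. These counts were 9 and 17 when rescaled to the same sum, and the root count was 1 without root library 3. Cyclin D4-1, Sp03g00361, had 1.12 ± 0.494 FPKM in roots and 14.6 ± 1.80 FPKM in fronds, while cyclin B1-2, Sp13g00332, was higher in roots at 389.8 ± 23.4 FPKM in roots and 220.1 ± 12.809 FPKM in fronds. The list held a larger share of the summed FPKM in roots: 0.559% in roots against 0.460% in fronds, although its median log2 difference was -0.35, or -0.11 when rescaled to the same sum. Of sucrose and sugar transport genes, 4 of 51 tested genes were at least 2-fold higher in roots and 16 at least 2-fold higher in fronds, or 7 and 15 when rescaled to the same sum. The SWEET1a homolog Sp04g00398, a sugar exporter, had 0.121, 0.442, 0 and 0.281 FPKM in roots and 42.9, 31.3, 42.9 and 39.2 FPKM in fronds, and an insoluble invertase, Sp07g00420, which splits sucrose in the cell wall, 18.9 ± 1.15 FPKM in roots and 146 ± 21.5 FPKM in fronds. SWEET2a, Sp05g00599, known in Arabidopsis from root vacuoles, had 242 ± 10.8 FPKM in roots and 82.2 ± 16.6 FPKM in fronds. Starch genes leaned to fronds by count: 2 of 32 tested genes were at least 2-fold higher in roots and 10 at least 2-fold higher in fronds. These counts were 3 and 8 when rescaled to the same sum. Starch branching enzyme, Sp04g00035, was higher in fronds with 55.034 ± 9.74 FPKM in roots and 154 ± 15.2 FPKM in fronds. Isoamylase 3, a debranching enzyme, was higher in roots with 116 ± 35.8 FPKM in roots and 37.6 ± 3.49 FPKM in fronds for Sp07g00971. The FT-type gene HEADING DATE 3A, Sp05g00396, a mobile flowering signal in rice, had 1 read over the control roots and 18.8, 20.4, 41.4 and 22.1 FPKM in fronds, of which library 3 was the highest.

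Some large families were mixed in each organ. Of receptor-like kinases, 41 of 250 tested genes were at least 2-fold higher in roots and 70 at least 2-fold higher in fronds, or 56 and 57 when rescaled to the same sum, and of defence and chitinase genes 15 of 103 tested genes were at least 2-fold higher in roots and 34 at least 2-fold higher in fronds. Of genes of cell wall loosening and polysaccharides, 20 of 160 tested genes were at least 2-fold higher in roots and 51 at least 2-fold higher in fronds. In these 3 lists the median was below 0 (-0.19, -0.27 and -0.43). These medians were -0.01, -0.10 and -0.13 with no filter, and -0.0024, -0.03 and -0.18 when rescaled to the same sum. The mean share of the summed FPKM was larger in roots for all 3, the cell wall shares overlapping between organs. Among WRKY factors, 10 of 47 tested genes were at least 2-fold higher in roots and 6 at least 2-fold higher in fronds, or 14 and 3 when rescaled to the same sum.

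Some of the largest differences lay outside these groups. Among genes with a homolog description, at least 5 FPKM and no overlap, the largest on the root side was the organic cation and carnitine transporter OCT1, Sp14g00298 (chromosome 14, 1686243 to 1688013), with 195, 183, 187 and 145 FPKM in the control root libraries, against 0.710, 0.654, 0.596 and 0.858 FPKM in the control frond libraries (log2 difference 6.70, SE 0.22, limma adjusted p = 4.81e-13). WAT1-related genes, of a family of vacuolar and other transporters, followed with 241 ± 14.2 FPKM in roots and 1.61 ± 0.505 FPKM in fronds for Sp01g00601 and 566 ± 89.7 FPKM in roots and 11.8 ± 1.27 FPKM in fronds for Sp18g00412. Endoglucanase 20 of the cell wall, Sp19g00214, had 240.0, 463, 386 and 385 FPKM in the control root libraries, against 4.40, 12.4, 9.51 and 9.78 FPKM in the control frond libraries (log2 difference 5.24, SE 0.39, limma adjusted p = 1.12e-08). A phospholipase A1, Sp08g00623, had 104 ± 27.6 FPKM in roots and 1.87 ± 0.960 FPKM in fronds. The cysteine endopeptidase CEP1, Sp09g00643, known from programmed cell death in Arabidopsis, had 85.2 ± 27.0 FPKM in roots and 1.07 ± 0.714 FPKM in fronds. In all 3 the lowest root lay far above the highest frond, though a lack of overlap was a condition of their choice.

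On the frond side the auxin-binding protein ABP19a, Sp04g01473 (chromosome 4, 9149329 to 9149826), a germin-like protein of the cell wall, had 3.49, 16.5, 77.5 and 9.57 FPKM in the control root libraries, against 6208, 6000.3, 7815 and 5138 FPKM in the control frond libraries (log2 difference -8.61, SE 0.85, limma adjusted p = 2.61e-07). Its root mean of 26.8 FPKM was 9.84 FPKM without library 3, and the log2 difference -9.37. An aspartyl protease, Sp12g00463, had 0, 0, 2.80 and 0.0741 FPKM in roots and 429.6, 494, 504 and 432 FPKM in fronds (log2 difference -8.35, SE 0.43, limma adjusted p = 1.36e-10). Galactinol synthase 1, Sp13g00367, which supplies raffinose sugars, had 0.136, 0.374, 2.52 and 0.106 FPKM in roots and 519, 561, 381 and 485 FPKM in fronds. In both genes library 3 was the highest root. A lipid-transfer protein, Sp10g00918, had 0.667 ± 1.33 FPKM in roots and 308 ± 59.6 FPKM in fronds, with all its root reads in library 3, and a BURP domain protein, Sp08g00770, had 1 root read and 178 ± 30.8 FPKM in fronds.

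Within some gene families, copies were higher in opposite organs. Of 2011 homolog names shared by at least 2 tested genes, 109 (5.42%) had a gene at least 2-fold higher in roots and another at least 2-fold higher in fronds, 371 had such genes in roots alone, 529 in fronds alone and 1002 in neither. Over all tested genes, 11.9% were at least 2-fold higher in roots and 15.9% in fronds. Some names would be divided at these rates alone, and whether 109 is more than that was not tested. In 39 of the 109 families there were exactly 2 tested genes. The widest pair was ABP19a, whose other copy, Sp12g00576, had 76.9, 231, 163 and 172 FPKM in the control root libraries, against 4.66, 8.14, 5.48 and 6.10 FPKM in the control frond libraries (log2 difference 4.43, SE 0.35, limma adjusted p = 2.28e-08), while the frond copy had the levels given above. The root copy never reached the level of the frond copy in its own organ. A pair named for the aspartyl protease At5g10770 lay close together on chromosome 12, with 40.5 ± 16.6 FPKM in roots and 1.65 ± 0.318 FPKM in fronds for Sp12g00458 opposite the frond gene Sp12g00463. VAN3-binding protein, which acts in vein patterning in Arabidopsis, was evenly opposed. Sp11g00866 had 69.6, 80.2, 62.8 and 69.8 FPKM in the control root libraries, against 2.28, 4.28, 3.34 and 2.06 FPKM in the control frond libraries. Sp03g01224 had 0.260, 0.119, 0.423 and 0.503 FPKM in the control root libraries, against 29.4, 37.4, 24.1 and 23.9 FPKM in the control frond libraries. No library of an organ overlapped the other organ for either gene. The ABP19a and FRO4 names had no other tested gene, while VAN3-binding protein had 5 tested genes in all, At5g10770 8, AHL22 4, and TIC 32 B, polyphenol oxidase and HHT1 3 each, so a pair here is the root gene and the frond gene with the largest differences.

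The remaining pairs covered phenolic, iron and suberin chemistry. Polyphenol oxidase, which oxidises phenols in plastids, had 142 ± 76.9 FPKM in roots and 5.21 ± 0.850 FPKM in fronds for Sp05g00632 and 3.24 ± 0.535 FPKM in roots and 64.6 ± 8.18 FPKM in fronds for Sp09g00892. FRO4 had the root gene Sp14g00665 beside the frond gene Sp14g00663, with the levels given above. Their coding lengths were 324 and 291 bases, and whether these short models are whole genes was not tested. The models Sp14g00663 to Sp14g00665 are neighbours with like names, so reads may be shared between them. Feruloyl transferase HHT1, which adds ferulate to suberin in Arabidopsis, had 217 ± 79.6 FPKM in roots and 13.3 ± 4.39 FPKM in fronds for Sp04g00821 and 3.97 ± 1.5001 FPKM in roots and 36.2 ± 5.26 FPKM in fronds for Sp01g00343. AHL22 had a frond copy, Sp06g00056, at 13.1 ± 2.29 FPKM in roots and 65.6 ± 10.0 FPKM in fronds, and TIC 32 B a root copy, Sp02g01000, at 5.05 ± 0.598 FPKM in roots and 0.997 ± 0.656 FPKM in fronds against 0.232 ± 0.297 FPKM in roots and 203 ± 20.3 FPKM in fronds for Sp01g01609.

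**Figure D4:**
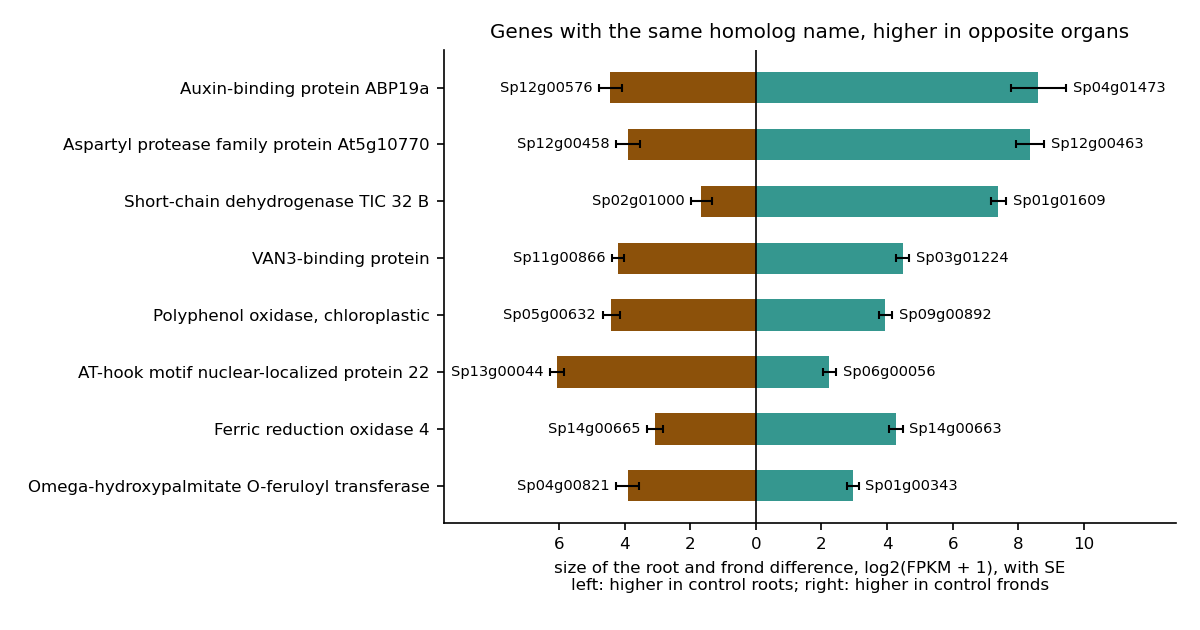
Size of the root and frond difference on the log2(FPKM + 1) scale, with SE, of 8 pairs of genes that share a homolog name. Bars to the left are genes higher in control roots and bars to the right genes higher in control fronds; ABP19a has the widest pair, and the length of the Sp14g00663 bar depends on the pseudocount, as it had no read in control roots.

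The organ differences were measured again in the 8 libraries without phosphate, which share no library with the control comparison. Both comparisons came from the same fit over all 16 libraries. The spread per gene behind their adjusted p and the filter on low genes were therefore shared. Of the 4604 genes at least 2-fold higher in an organ in control medium, 4464 (96.96%) were also called in the same direction there, 1902 of 1970 root genes and 2562 of 2634 frond genes. Of all 9929 genes called in control medium, 8957 were called in the same direction there and 3 in the opposite direction. Over all 16598 tested genes, 11217 were called there in either direction, so many calls are shared at that rate alone. By limma no gene was called for a difference between the 2 organ contrasts, although 1843 genes had an unadjusted p under 0.05, and the alternatives called 0 to 5. The asparagine synthetase gene had 6416 FPKM in roots and 326 FPKM in fronds without phosphate. Sp15g00063, the gene with a Rubisco small subunit name, had 549.5 FPKM in roots and 29.8 FPKM in fronds there. For ABP19a, Sp04g01473, the values were 18.5 FPKM in roots and 8111 FPKM in fronds. These 3 genes kept their direction and were called in both media.

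**Figure D5:**
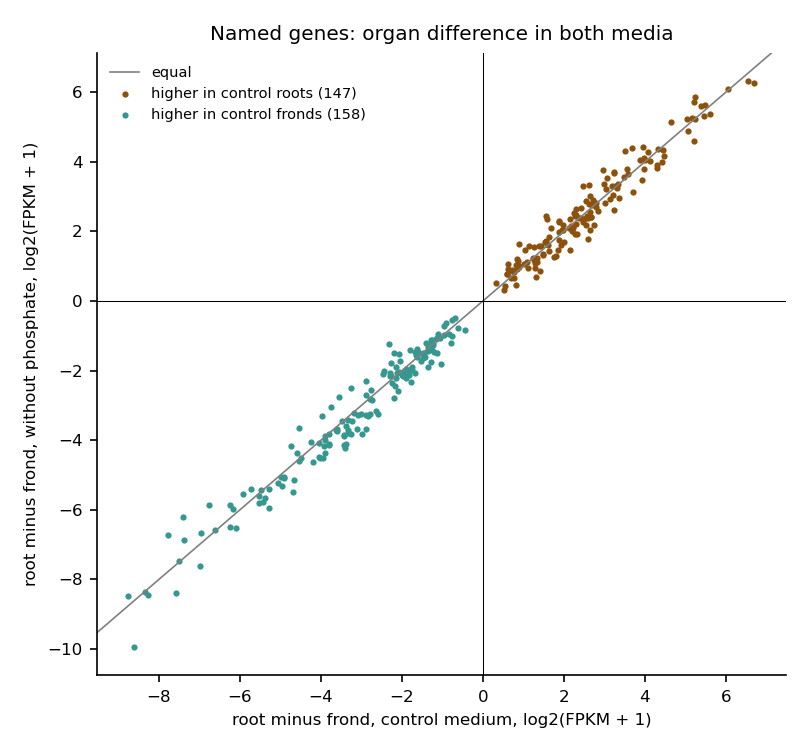
Root minus frond difference on the log2(FPKM + 1) scale in control medium (horizontal) and in medium without phosphate (vertical) for 305 named genes, 147 higher in control roots (brown) and 158 higher in control fronds (green), with a line where both are equal. All 305 kept their sign without phosphate, but they were chosen by their control values and all were called in control medium. They do not show how often genes in general keep their sign.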

How the data were processed

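RNA of whole roots and whole fronds was sequenced from Spirodela polyrhiza clone 9509, with 4 libraries for each of 4 groups. The submitters' processing notes name HISAT2 2.0.5 and featureCounts 1.5.0-p3; genome build, annotation release and strand setting were not given in the sources used here. The authors deposited FPKM values for each gene and library, per the file headers, with gene coordinates, lengths and homolog descriptions. Of the gene lengths, 98.4% are multiples of 3, so they are coding lengths. A further 1 line was not used here, which leaves 20389 genes.

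FPKM times coding length gave whole reads for 100.0% of values, within 0.001 of a whole number. The library total behind the FPKM was 0.886 to 1.14 times the recovered reads, above 1 in control roots and below 1 in control fronds, so the scale is not that of the summed reads and its origin is not stated in the labels. Recovered read totals are the depths in the text. No pair of libraries agreed within sampling noise, as the smallest chi-square per degree of freedom was 3.68. The precision at low counts was taken as a floor of 3 reads per library, which covers counting error only.

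Genes averaging 0.5 FPKM or more over the 16 libraries were tested on log2(FPKM + 1) with limma 3.58.1 in R 4.3.3 (statmod 1.5.0), which understates differences of low genes. The model held 4 group means, with a trended and robust prior, the control contrast was root minus frond, and p-values were adjusted by the Benjamini-Hochberg method over 16598 genes. Genes were called at 0.05. The steps were also run on simulated data in which far fewer genes differed than were called here. No result given here rests on that run. P-values set a difference against the spread between libraries of a group, pooled over the 4 groups.

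Lists were found by words in the homolog descriptions. Fragments of words that matched by mistake were removed by reading descriptions only. The members and lists were chosen with earlier results of these data known. Named genes are up to 12 each way with the largest differences, at least 5 FPKM in the higher organ and no overlap between libraries, the 10 most abundant called 2-fold higher in each organ, up to 4 each way per list with the smallest adjusted p and at least 5 FPKM, and up to 8 pairs of copies, all with a homolog description. Marker genes named in the text come from the marker names, and the named genes printed are a selection made with their values known. Neighbouring gene models with the same name may share reads, and their values are uncertain.

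Alternatives were other pseudocounts, filters and scalings, a plain prior, library weights, a replicate block, voom on recovered reads, the control libraries alone, and leaving out each library. The labels do not say which root and frond libraries came from the same flask, so the unpaired model leaves shared flasks out.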

Additional observations from a re-analysis of the deposited data

Results flagged for a closer look

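By Dixon's ratio at its 95% limit, 1 library lay apart in 21 of 348 groups of 4 libraries (6.03%), where chance gives about 1 in 20. Root library 1 held 9 of these flags, and no explanation was tested for any of them. For the SCARECROW homolog Sp01g01244, root library 1 was the lowest, at 6.38 FPKM, with 7.28 to 7.34 FPKM in the other root libraries. For the aquaporin TIP1-2 homolog Sp01g01589, root library 1 was the highest, at 939.8 FPKM, with 355 to 452 FPKM in the other root libraries. For the CUP-SHAPED COTYLEDON 3 homolog Sp02g00073, root library 1 was the lowest, at 20.9 FPKM, with 34.6 to 36.8 FPKM in the other root libraries. For the Beta-fructofuranosidase, insoluble isoenzyme 3 homolog Sp07g00420, root library 1 was the lowest, at 17.2 FPKM, with 19.5 to 19.6 FPKM in the other root libraries. For the Adenylate isopentenyltransferase 8 homolog Sp08g00090, root library 1 was the lowest, at 17.5 FPKM, with 29.3 to 30.8 FPKM in the other root libraries. For the S-type anion channel SLAH1 homolog Sp13g00223, root library 1 was the highest, at 40.03 FPKM, with 22.2 to 24.9 FPKM in the other root libraries. For the Transcription factor bHLH111 homolog Sp14g00304, root library 1 was the highest, at 98.97 FPKM, with 65.9 to 67.9 FPKM in the other root libraries. In root library 1, the summed FPKM share of auxin genes was the lowest, at 0.270%, with 0.348% to 0.362% in the other root libraries. In root library 1, the summed FPKM share of receptor-like kinase genes was the highest, at 0.581%, with 0.494% to 0.499% in the other root libraries. For the LOB domain-containing protein 15 homolog Sp01g01352, frond library 2 was the lowest, at 2.15 FPKM, with 3.85 to 4.18 FPKM in the other frond libraries. For the Metal tolerance protein 7 homolog Sp13g00300, frond library 2 was the lowest, at 2.52 FPKM, with 3.42 to 3.51 FPKM in the other frond libraries. For the Glutamyl-tRNA reductase homolog Sp03g00008, root library 4 was the lowest, at 38.0 FPKM, with 57.2 to 60.2 FPKM in the other root libraries. For the Omega-hydroxypalmitate O-feruloyl transferase homolog Sp04g00821, frond library 1 was the lowest, at 6.82 FPKM, with 14.7 to 16.1 FPKM in the other frond libraries. For the HEADING DATE 3A homolog Sp05g00396, frond library 3 was the highest, at 41.4 FPKM, with 18.8 to 22.1 FPKM in the other frond libraries. For the Sulfate transporter 1.3 homolog Sp07g01018, frond library 3 was the highest, at 7.01 FPKM, with 4.75 to 5.12 FPKM in the other frond libraries. For the YABBY 2 homolog Sp09g00758, frond library 3 was the lowest, at 75.3 FPKM, with 81.6 to 82.8 FPKM in the other frond libraries. For the Ferric reduction oxidase 4 homolog Sp14g00663, frond library 3 was the highest, at 28.4 FPKM, with 14.6 to 16.9 FPKM in the other frond libraries. For the NRT1/PTR FAMILY 8.1 homolog Sp10g01091, root library 3 was the highest, at 14.8 FPKM, with 4.35 to 5.41 FPKM in the other root libraries. For the Aspartyl protease family protein At5g10770 homolog Sp12g00463, root library 3 was the highest, at 2.80 FPKM, with 0 to 0.0741 FPKM in the other root libraries. For the Galactinol synthase 1 homolog Sp13g00367, root library 3 was the highest, at 2.52 FPKM, with 0.106 to 0.374 FPKM in the other root libraries. For the NRT1/PTR FAMILY 8.1 homolog Sp10g01091, frond library 4 was the highest, at 54.3 FPKM, with 36.2 to 39.0 FPKM in the other frond libraries.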

How the results depend on the processing

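The counts of called genes and of genes at least 2-fold higher stayed within 1.5 times their values in all alternatives run. Called genes numbered 9929 as reported and 9156 (mean of at least 2 FPKM) to 10441 (same summed FPKM). Genes at least 2-fold higher numbered 1970 in roots and 2634 in fronds as reported, and 2949 in roots and 1990 in fronds when rescaled to the same sum, which turns which organ has more. Voom on recovered reads called 9728. Leaving out each library in turn gave 9269 to 9552 called genes, 1958 to 2052 root genes and 2531 to 2730 frond genes. For the libraries without phosphate it gave 4362 to 4555 genes of the same direction, for divided families 103 to 115, and for lists with a median above that of all genes 13 to 15, against 4464, 109 and 14 as reported. With no filter on low values 11 lists lay above the median, and 5 lists changed side in at least 1 alternative (nitrogen, potassium, aquaporins, class III peroxidases and cytochrome P450). With a replicate block by number, 9540 genes were called, 1982 and 2631 at least 2-fold higher in roots and fronds, 111 families were divided and 14 lists lay above the median, against 9929, 1970 and 2634, 109 and 14 without the block. Correlations of deviations between same-numbered root and frond libraries were 0.121, -0.00602, -0.116 and -0.00324, against -0.231 to 0.325 for other pairs (highest for root library 4 with frond library 3), and no root library correlated best with its own number. The numbers were therefore not used as pairs, and which libraries share a flask is not given in the labels.

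The median of all genes moved to 0.22 when rescaled to the same sum. The medians of the ethylene and jasmonate, bHLH and cytochrome P450 lists then changed sign, and the organ holding more 2-fold genes changed in at least 1 alternative in 8 of 37 lists. Of 74 list counts, 17 moved by over 1.5 times in at least 1 alternative. Of 149 genes named, none reversed and none lost its call; the Sp13g00799 log2 difference (SCARECROW) passed the threshold at 0.35 (limma, adjusted p = 0.0403) when rescaled to the same sum. With 4 libraries per organ, depth limits the genes near the filter, and 1 library can set the mean of a gene at few reads. Roots and fronds are whole organs of pooled plants, so cell types are not separated.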

Other observations

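In control fronds, libraries 1 and 2 stood apart from libraries 3 and 4 in some abundant genes. The ZIP4 homolog Sp19g00133 had 815, 892, 95.8 and 178 FPKM, the asparagine synthetase Sp01g01460 578, 898, 241 and 278 FPKM, and plastocyanin Sp09g00335 7169.5, 5117, 11604 and 11141 FPKM in frond libraries 1 to 4. These values were noticed after the data were seen, and no explanation was tested.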
